A study of Mus musculus with 2 samples.

Results

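The BCL-2 family genes described here are 10 of the 31053 genes listed in 2 single-cell transcriptome libraries of mouse bone marrow, and all 10 were found by symbol in both. They comprise 4 genes of anti-apoptotic proteins (Bcl2, Mcl1, Bcl2l1 and Bcl2a1b), 2 of pore-forming effectors (Bax and Bak1) and 4 of BH3-only proteins (Bcl2l11, Bid, Bbc3 and Pmaip1). One library came from mice in which LCR1 was knocked out (KO) and the other from wild-type mice (WT), both C57BL/6 animals of 8 to 12 weeks, pooled by genotype with equal numbers of each sex. Viable CD45+, lineage-negative, CD127+ cells had been sorted before droplet capture, so cells without CD127, the interleukin-7 receptor, were not sampled by design. The study's question was how ILC2, the group 2 innate lymphoid cells, develop without LCR1. The labels name LCR1 without a position, which is not given here. With 1 pooled library per genotype there is no replicate, so no test was run, a difference between genotypes cannot be told apart from a difference between libraries, and every interval below covers counting error only.

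Proteins of this family decide at the outer mitochondrial membrane whether a cell dies. Bax and Bak1 perforate that membrane, the anti-apoptotic members hold them in check, and the BH3-only proteins either neutralise the anti-apoptotic members or activate the effectors directly. In lymphocytes, interleukin-7 signalling is known to sustain Bcl2, Mcl1 is needed by many blood cell types, and Bcl2l11, which encodes Bim, is the main antagonist of survival upon cytokine withdrawal.

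What members of every role have in common is the BH3 motif, through which they bind one another. The coding strand of 7 members held it as a leucine codon, 3 further codons, a glycine or alanine codon, an aspartate codon and a codon for aspartate, glutamate or asparagine. These 7 codons are in capitals below, shown because they are the stretch that anti-apoptotic, effector and BH3-only members share.
Bcl2: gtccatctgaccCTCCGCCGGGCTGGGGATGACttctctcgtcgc
Bcl2l1: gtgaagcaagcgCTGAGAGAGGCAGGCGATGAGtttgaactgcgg
Bax: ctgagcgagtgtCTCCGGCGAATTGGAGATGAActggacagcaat
Bak1: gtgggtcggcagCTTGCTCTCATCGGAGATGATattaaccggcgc
Bcl2l11: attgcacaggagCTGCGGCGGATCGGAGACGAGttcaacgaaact
Bid: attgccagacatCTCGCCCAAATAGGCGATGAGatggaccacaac
Bbc3: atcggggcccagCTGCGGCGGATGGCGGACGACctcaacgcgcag
The stretches were read 5′ to 3′ from GENCODE M21 transcripts (GRCm38, the build that mm10 names) and each lies within 1 coding exon; the gene positions given further on come from the same annotation. Their positions are chr1:106712569-106712613 (minus strand) for Bcl2, chr2:152829691-152829735 (minus) for Bcl2l1, chr7:45465991-45466035 (minus) for Bax and chr17:27022525-27022569 (minus) for Bak1. Those of the BH3-only members are chr2:128147138-128147182 (plus) for Bcl2l11, chr6:120897283-120897327 (minus) for Bid and chr7:16313761-16313805 (plus) for Bbc3. Mcl1 and Bcl2a1b held no match to these letters, which says only that their motif is spelled differently.

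The promoters of the 3 members on which most of the comparisons below turn are shown next, from 250 bases before to 50 bases after the annotated start (RefSeq, GRCm38.p6).
Bcl2, chr1:106714241-106714540, minus strand: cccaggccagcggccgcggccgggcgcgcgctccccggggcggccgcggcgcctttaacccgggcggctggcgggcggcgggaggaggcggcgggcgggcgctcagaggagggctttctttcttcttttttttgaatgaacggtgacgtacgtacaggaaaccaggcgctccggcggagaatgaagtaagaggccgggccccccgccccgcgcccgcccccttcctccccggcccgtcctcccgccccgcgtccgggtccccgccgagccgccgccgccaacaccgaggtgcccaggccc
Mcl1, chr3:95658471-95658770, plus strand: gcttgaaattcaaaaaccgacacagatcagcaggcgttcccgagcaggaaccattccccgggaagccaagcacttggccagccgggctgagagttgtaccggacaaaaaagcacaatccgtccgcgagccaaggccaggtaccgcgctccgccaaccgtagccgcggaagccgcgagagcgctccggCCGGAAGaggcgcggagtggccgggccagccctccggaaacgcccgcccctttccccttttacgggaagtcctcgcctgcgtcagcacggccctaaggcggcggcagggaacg
Bcl2l11, chr2:128125788-128126087, plus strand: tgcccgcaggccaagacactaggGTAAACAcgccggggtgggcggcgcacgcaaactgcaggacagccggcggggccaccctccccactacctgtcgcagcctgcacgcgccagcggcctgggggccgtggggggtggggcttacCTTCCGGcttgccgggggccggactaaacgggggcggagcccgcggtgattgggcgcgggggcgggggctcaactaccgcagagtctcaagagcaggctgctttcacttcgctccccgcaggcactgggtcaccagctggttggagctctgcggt
Capitals mark matches, on either strand, to an ETS motif (CCGGAAG) and a forkhead motif (TGTTTAC). Mcl1 held the ETS letters at position -63 from the start and Bcl2l11 at -105, and Bcl2l11 also held the forkhead letters at -227. Of 32851 promoter windows, 8.86% held the ETS letters and 3.65% the forkhead letters. The letters of STAT (TTCNNNGAA, in 8.30% of windows), the cyclic AMP element (TGACGTCA, 1.79%) and the E box (CAGGTG, 20.2%) were absent from these 3 windows, and the Bcl2 window held none of the motifs. A further window annotated for Bcl2l11, chr2:128127325-128127624, is not shown and also held none of them. Over the 14 windows annotated for 9 members, GC content ran from 46.7% in Bcl2a1b to 78.0% in 1 of the 3 Bbc3 windows, against 76.0% in Bcl2, 65.7% in Mcl1 and 71.0% in this Bcl2l11 window.

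A barcode counted as a cell when it showed 1000 or more genes with no more than 10% of its UMIs (unique molecular identifiers, 1 per captured transcript) from mitochondrial genes. This left 4343 KO and 3290 WT cells, with medians of 7261 and 5371.5 UMIs. The libraries totalled 52137780 UMIs in KO and 47883132 in WT, and no barcode was shared between the kept cells. Cells were placed in 12 classes by counting detected markers of each lineage, 3134 KO cells (72.2%) and 1898 WT cells (57.7%) in all. Each class had at least as many of its own markers among its 10 leading genes as of any other list. Levels below are UMIs of a gene per 1000000 UMIs of the class (CPM). In this 3′ assay 1 UMI stands for 1 transcript whatever its length, although capture can differ between genes. Il7r, the gene of the sorted receptor chain, was present in every class, from 151 CPM in KO and 189 CPM in WT basophil-like cells to 1732 CPM in WT Calca-low ILC2-like and 2075 CPM in KO ILC3-like cells. CD3 lymphocyte-like, early B-like and basophil-like cells were found although the sort was lineage-negative. Id2, a transcription factor required by innate lymphoid cells (ILCs), was lower in KO cells of the ILC classes, for example 261 CPM in KO and 1812 CPM in WT ILC precursor-like cells.

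The family differed between classes mainly through Bcl2. Together the 10 members took 1366 CPM in KO and 1604 CPM in WT ILC precursor-like cells, which carry Zbtb16, but 497 CPM in KO and 513 CPM in WT early B-like cells. In ILC precursor-like cells 85.0% of the family's UMIs in KO and 89.8% in WT came from anti-apoptotic members, above every other class of the same library. Early B-like cells had the lowest such share, 59.5% in KO and 58.8% in WT, and basophil-like cells came next with 62.5% in KO and 67.6% in WT. Along ILC maturation the anti-apoptotic share was thus highest in the precursors. It stood at 73.9% in KO and 75.1% in WT intermediate cells, at 81.2% in KO and 81.6% in WT Calca-low ILC2-like cells, and at 73.8% in KO and 69.3% in WT Calca-high ILC2-like cells. Calca encodes the calcitonin gene-related peptide and divided the ILC2-like cells into those with at least 2 Calca UMIs (high) and the rest (low).

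**Figure D1:**
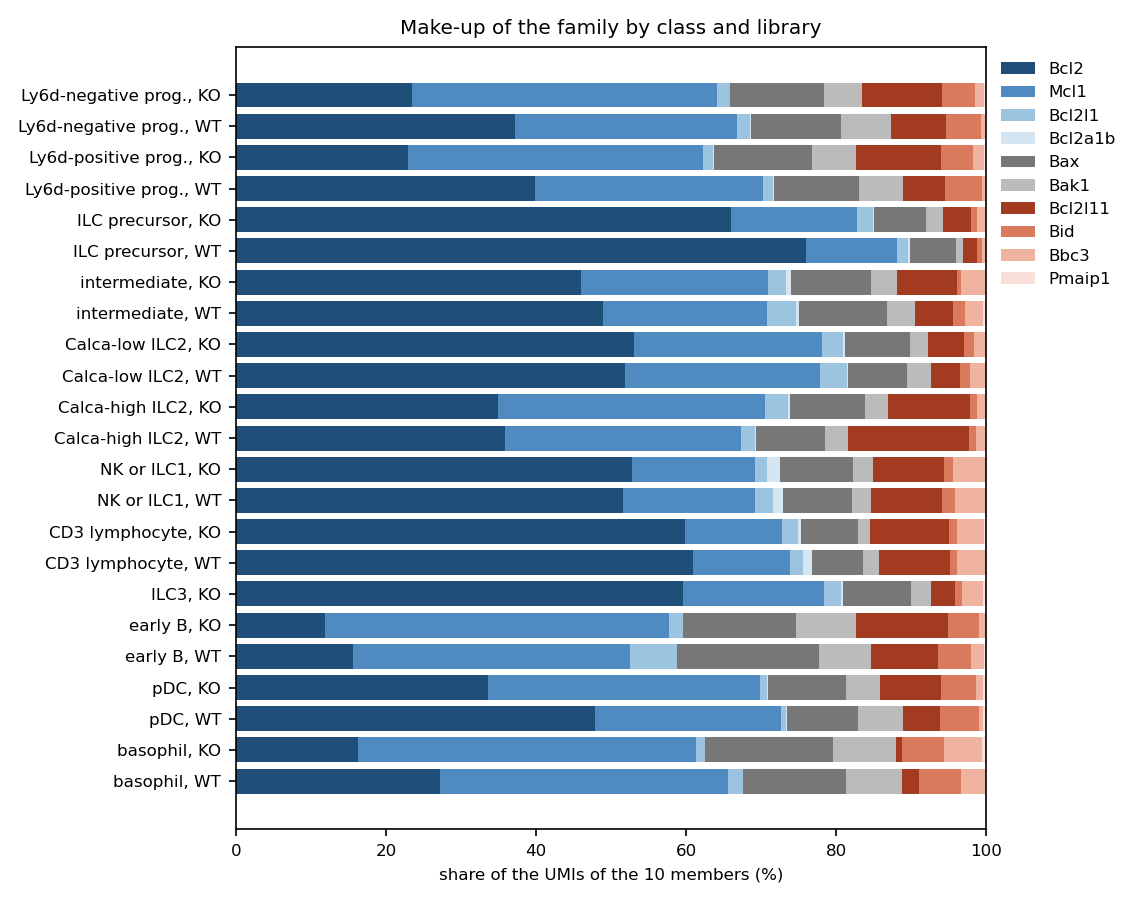
Share of the UMIs of the 10 members (x axis, %) in each class and library, KO above WT, with anti-apoptotic members in blue, effectors in grey and BH3-only members in red. ILC precursor-like cells carry the largest blue share (85.0% in KO, 89.8% in WT) and early B-like cells the smallest (59.5% in KO, 58.8% in WT); ILC3-like cells are drawn for KO only, since WT held 18.

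BH3-only members took the largest share in WT Calca-high ILC2-like cells, 18.4% (exact 95% interval 15.8 to 21.1), and the smallest in WT ILC precursor-like cells, 3.14% (2.30 to 4.18). The KO values in these classes were 13.1% (10.2 to 16.5) and 5.77% (5.12 to 6.47). Lymphoid progenitor-like cells, too, had a higher BH3-only share in KO, with 16.6% against 12.7% in WT in the cells without a Ly6d UMI (Ly6d-negative) and 17.4% against 11.1% in WT in those with at least 2 (Ly6d-positive). Plasmacytoid dendritic cell-like (pDC-like) cells had 14.2% in KO and 11.2% in WT. Ly6d is known to mark lymphoid progenitors that have started towards B cells, and the negative class is taken as the more immature. Ly6d itself was highest in pDC-like cells here, at 3941 CPM in KO and 4162 CPM in WT. Early B-like cells had 938 CPM in KO and 1110 CPM in WT.

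Bcl2, the founding anti-apoptotic member (chr1:106538178-106714274, minus strand), spanned 16.6-fold between its highest and lowest class in KO and 15.2-fold in WT. CD3 lymphocyte-like cells at 979.6 CPM (933 to 1028) in KO and 1025 CPM (953 to 1100) in WT stood near the top with ILC precursor-like cells at 902 CPM (871 to 934) in KO and 1219 CPM (1148 to 1294) in WT. ILC3-like cells reached 899 CPM in KO, where 223 cells were found, and the 18 WT cells were too few to compare. Natural killer (NK) or ILC1-like cells followed at 659 CPM in KO and 658 CPM in WT. Within the ILC2 branch the level was lower than in the precursors, with 457 CPM in KO and 428 CPM in WT intermediate cells, 502 CPM in KO and 478 CPM in WT Calca-low cells, and 268 CPM in KO and 257 CPM in WT Calca-high cells. Early B-like cells had the least, 59.1 CPM in KO and 80.3 CPM in WT. Of the neighbouring pairs in this order, 6 of 11 in KO and 4 of 10 in WT had overlapping counting intervals, among them intermediate and Calca-low cells.

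Mcl1, a short-lived anti-apoptotic protein (chr3:95658788-95663176, plus strand), was nearly flat in comparison. Its classes ran from 205 CPM in NK or ILC1-like to 309 CPM in pDC-like cells in KO, and from 173 CPM in Ly6d-negative progenitor-like to 239 CPM in Calca-low ILC2-like cells in WT. The highest class was thus 1.51-fold above the lowest in KO and 1.38-fold in WT, and all 11 pairs of neighbouring classes in KO and all 10 in WT overlapped. Bcl2l1, which encodes BCL-XL (chr2:152780668-152831728, minus strand), stayed low, with at most 34.4 CPM in KO CD3 lymphocyte-like cells and 33.8 CPM in WT intermediate cells. Its lowest classes were basophil-like cells in KO at 6.59 CPM and pDC-like cells in WT at 5.62 CPM.

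Bcl2a1b, an inducible anti-apoptotic gene of the A1 cluster (chr9:89199209-89207827, plus strand), was close to the floor outside cytotoxic-type cells. It reached 20.8 CPM in KO and 16.5 CPM in WT NK or ILC1-like cells, while CD3 lymphocyte-like cells had 12 UMIs in KO and 14 in WT, the WT level being 18.8 CPM. Over all classes it had 103 UMIs in KO and 47 in WT. Its coding sequence differs from that of Bcl2a1d at 6 of 516 bases and from that of Bcl2a1a at 11, so coding reads of these copies may not be fully told apart. The 3′ ends beyond the coding sequence were not compared, and the level of Bcl2a1b is uncertain.

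Both effector genes were expressed in every class, with a narrow range. Bax (chr7:45461697-45466898, minus strand) ran from 75.3 CPM in early B-like to 136 CPM in ILC3-like cells in KO, and from 66.8 CPM in Calca-high ILC2-like to 117 CPM in NK or ILC1-like cells in WT. Bak1 (chr17:27019810-27029009, minus strand) was lower throughout, between 22.5 CPM in Calca-low ILC2-like and 45.3 CPM in basophil-like cells in KO and between 14.5 CPM in ILC precursor-like and 47.0 CPM in pDC-like cells in WT. ILC precursor-like, Calca-low and Calca-high ILC2-like cells lay at the low end for Bak1 in WT.

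Of the BH3-only genes, Bcl2l11 (chr2:128126038-128162547, plus strand) had the most UMIs in every class but basophil-like and WT pDC-like cells, in which Bid led; in WT pDC-like cells Bid had 145 UMIs and Bcl2l11 142. CD3 lymphocyte-like cells had 172 CPM in KO and 158 CPM in WT, and NK or ILC1-like cells 118 CPM in KO and 122 CPM in WT. On the ILC2 branch Bcl2l11 was highest in Calca-high cells in KO and in WT, where Bcl2 was lowest. ILC precursor-like cells had 51.6 CPM (44.4 to 59.7) in KO and 31.3 CPM (20.8 to 45.3) in WT, intermediate cells 78.7 CPM (62.0 to 98.5) in KO and 44.4 CPM (28.7 to 65.6) in WT, Calca-low cells 45.7 CPM (35.1 to 58.4) in KO and 35.3 CPM (27.7 to 44.3) in WT, and Calca-high cells 83.7 CPM (62.1 to 110.4) in KO and 115 CPM (96.5 to 136) in WT. The interval of Calca-high cells lay above that of Calca-low cells in both libraries, and overlapped that of intermediate cells in KO. Basophil-like cells were nearly without it, with 6 UMIs in KO and 18 in WT.

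Bid, which links death receptors to mitochondria (chr6:120891930-120916853, minus strand), was highest in pDC-like cells at 39.9 CPM in KO and 40.8 CPM in WT and lowest on the ILC2 branch, with 5.18 CPM in KO intermediate and 6.77 CPM in WT Calca-high cells. Bbc3, which encodes the p53 target Puma (chr7:16308393-16318205, plus strand), had its peak in CD3 lymphocyte-like cells, 58.3 CPM in KO and 64.3 CPM in WT, followed by NK or ILC1-like cells with 54.9 CPM in KO and 52.7 CPM in WT. Progenitor-like and pDC-like cells had under 10 CPM of it. Pmaip1, which encodes Noxa (chr18:66458533-66465565, plus strand), had 75 UMIs over all classes in KO and 28 in WT, too few to rank the classes. No Pmaip1 UMI was seen in 1379318 KO and 2099264 WT UMIs of Calca-low ILC2-like cells, which allows up to 2.67 CPM in KO and 1.76 CPM in WT (exact 95% bounds).

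**Figure D2:**
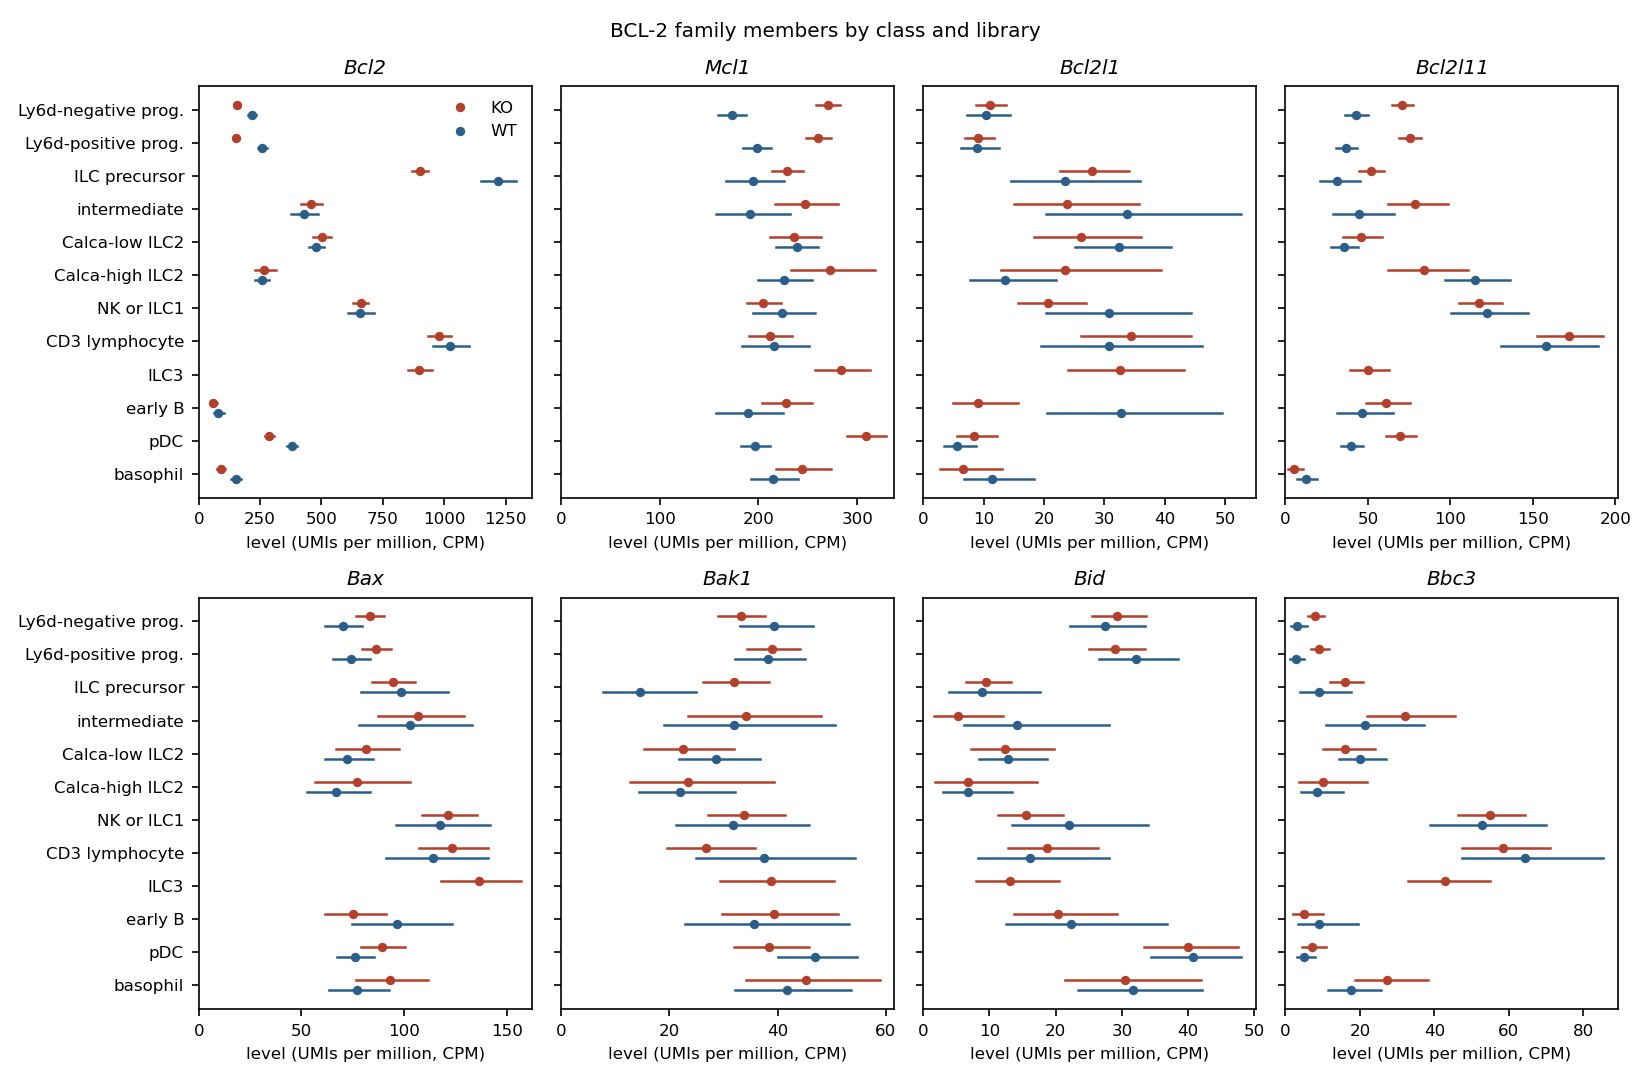
Level of 8 members (x axes, CPM) in each class, KO points above WT points, with exact 95% Poisson intervals for counting error; Pmaip1 and Bcl2a1b are left out because of their few UMIs. Bcl2 spans 16.6-fold in KO and 15.2-fold in WT between classes, while Mcl1 spans 1.51-fold in KO and 1.38-fold in WT.

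Mcl1 spanned far less than Bcl2. The rise of the Bcl2 to Mcl1 balance in ILC precursor-like cells and its fall after them therefore followed mostly Bcl2. The classes are set in the textbook order of that path, which was not itself measured here. In Ly6d-negative progenitor-like cells there were 0.576 Bcl2 UMIs per Mcl1 UMI in KO (0.535 to 0.621) and 1.26 in WT (1.13 to 1.40). ILC precursor-like cells had 3.94 (3.65 to 4.26) in KO and 6.26 (5.33 to 7.39) in WT. The ratio then came down, to 1.85 in KO and 2.23 in WT intermediate cells and to 2.12 in KO and 2.00 in WT Calca-low cells. Calca-high ILC2-like cells ended near parity, at 0.982 (0.784 to 1.23) in KO and 1.14 (0.963 to 1.35) in WT. From ILC precursor-like to Calca-high cells the drop was 2.01 log2 units in KO (1.66 to 2.35) and 2.46 in WT (2.12 to 2.80).

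**Figure D3:**
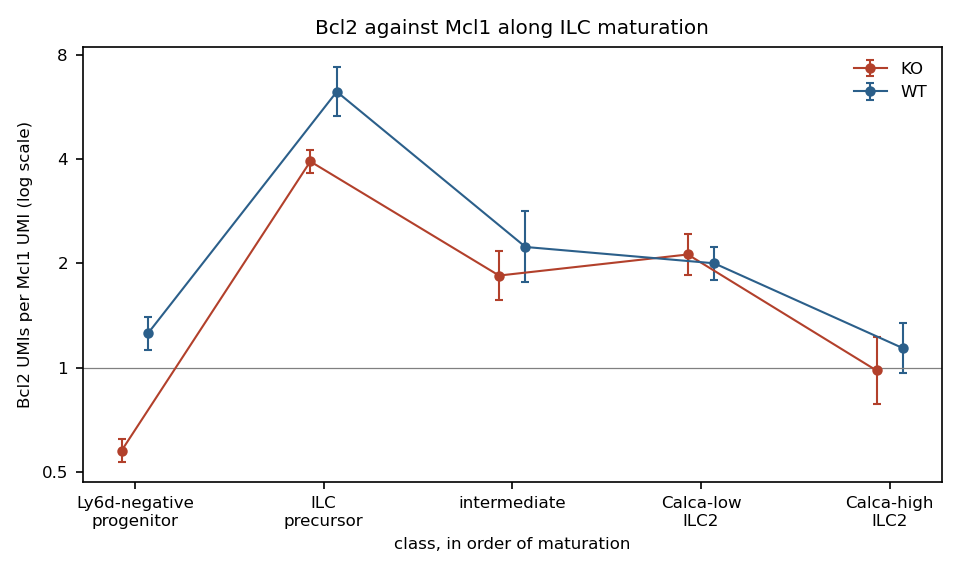
Bcl2 UMIs per Mcl1 UMI (y axis, log scale) in the 5 classes of ILC maturation in order, KO in red and WT in blue, with 95% intervals for counting error. The ratio peaks in ILC precursor-like cells (3.94 in KO, 6.26 in WT) and comes back to about 1 in Calca-high ILC2-like cells (0.982 in KO, 1.14 in WT).

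The start and the end of that path did not compare alike in the libraries. In KO the ratio of Calca-high cells was above that of Ly6d-negative progenitor-like cells by 0.77 log2 units (0.43 to 1.11), and in WT it was below by a difference of -0.14 (-0.43 to 0.15) that its interval does not part from 0. The KO value dropped to 0.41 when every cell was thinned to 1500 UMIs, and the WT value turned to 0.0097 without the 5% of cells with most UMIs. Mcl1 differed at these ends as well as Bcl2. In Ly6d-negative cells Mcl1 was at 270 CPM in KO and 173 CPM in WT, and Bcl2 at 156 CPM in KO and 218 CPM in WT. WT Calca-high cells had more of both than WT Ly6d-negative cells, with 226 CPM of Mcl1 and 257 CPM of Bcl2. The libraries stood apart at the progenitor end of the path: the ratio in KO over that in WT was 0.459 (0.401 to 0.524) in Ly6d-negative and 0.447 (0.394 to 0.507) in Ly6d-positive progenitor-like cells, and 0.629 (0.523 to 0.753) in ILC precursor-like cells. It was 1.06 (0.892 to 1.26) in Calca-low and 0.862 (0.650 to 1.14) in Calca-high cells, whose intervals include 1. Outside the path, pDC-like cells had 0.928 in KO and 1.94 in WT and basophil-like cells 0.364 in KO and 0.708 in WT. NK or ILC1-like cells with 3.22 in KO and 2.94 in WT and CD3 lymphocyte-like cells with 4.64 in KO and 4.75 in WT stayed high in both libraries.

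For each class, KO was set against WT over all genes by a rule of size: at least 1.5-fold, with an exact interval that leaves out 1. A gene entered with 50 UMIs in KO and WT together and a level of 20 CPM in KO or WT. In the 11 classes that had 30 cells or more in KO and in WT, 67 of 110 pairs of a member and a class entered. Of these, 8 were higher in KO and 2 were lower. Over all genes, 4471 of 64687 pairs of a gene and a class (6.91%) passed in either direction. The members' calls lay in progenitor-like, ILC precursor-like, intermediate, pDC-like and basophil-like cells. Of the members that entered, 0 of 7 passed in Calca-low ILC2-like cells, beside 9.51% of all genes (3.79% higher and 5.72% lower in KO), and 0 of 4 in Calca-high ILC2-like cells, beside 7.94% (2.34% higher, 5.6% lower). In NK or ILC1-like cells 0 of 9 passed, beside 5.51% of all genes (2.35% higher, 3.16% lower), and in CD3 lymphocyte-like cells 0 of 7, beside 6.46% (2.75% higher, 3.71% lower). In early B-like cells 0 of 5 passed, beside 11.5% of all genes (4.52% higher, 6.95% lower). Bcl2 in these cells was 0.736-fold (0.517 to 1.06). It came to 0.507-fold with a mitochondrial limit of 5% and 0.543-fold when thinned to 1500 UMIs. Without the 5% of cells with most UMIs it was 0.603-fold, and with the mean CPM of each cell 0.630-fold. Under the other alternatives it stayed short of the rule, at 0.731-fold with at least 500 genes and 0.771-fold with at least 2000. It was 0.767-fold with TMM scaling and 0.814-fold with 1 more marker asked of each class. At these background shares, 0 of 4 to 9 members is no sign that the family differs from other genes.

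**Figure D4:**
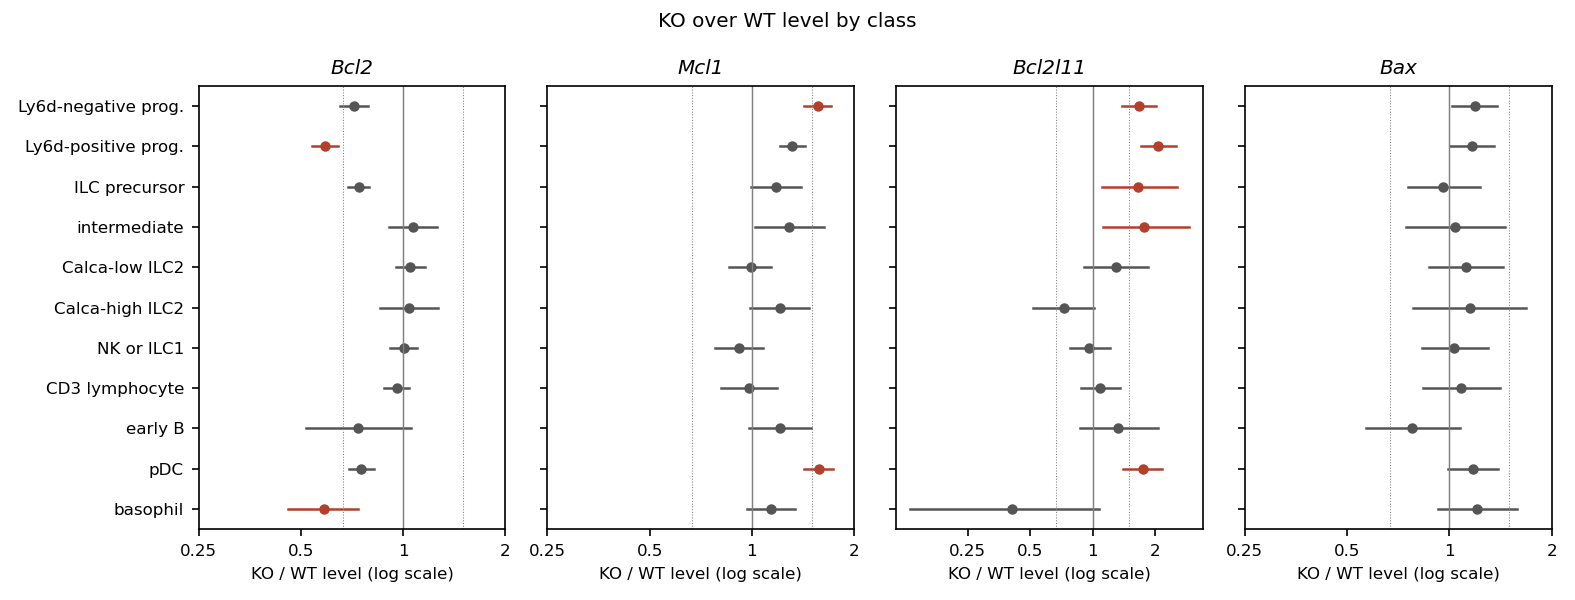
KO over WT level (x axes, log scale) of Bcl2, Mcl1, Bcl2l11 and Bax in the 11 classes compared, with exact 95% intervals for counting error; red points passed the rule of size dotted lines mark 1.5-fold, and the Bcl2l11 axis is wider than the others. Bcl2l11 is to the right of 1 in progenitor-like, ILC precursor-like, intermediate and pDC-like cells, the interval of Bcl2 is wholly to the left of 1 in both progenitor-like classes, ILC precursor-like, pDC-like and basophil-like cells but red in Ly6d-positive progenitor-like and basophil-like cells only, and none of the 4 passed in ILC2-like cells.

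In lymphoid progenitor-like cells the KO library had more Bcl2l11 and less Bcl2. Bcl2l11 stood at 70.7 CPM in KO and 42.5 CPM in WT Ly6d-negative cells, 1.67-fold (1.38 to 2.02), and at 75.4 CPM in KO and 36.5 CPM in WT Ly6d-positive cells, 2.06-fold (1.70 to 2.52). Mcl1 was also higher in KO Ly6d-negative cells, 270 CPM against 173 CPM in WT (1.56-fold, 1.42 to 1.71). Bcl2 was 0.588-fold (0.537 to 0.643) in Ly6d-positive cells, with 153 CPM in KO and 260 CPM in WT, and 0.716-fold (0.652 to 0.787) in Ly6d-negative cells, which is short of the rule. Thus 2 of 6 members that entered were higher in Ly6d-negative cells and 0 lower, beside 1.37% of all genes higher, 1.95% lower and 3.32% in either direction. In Ly6d-positive cells 1 of 6 was higher and 1 lower, beside 2.41% of all genes higher, 2.33% lower and 4.75% in either direction. Bbc3 stayed below the level that the rule asks for, with 8.00 CPM in KO and 3.18 CPM in WT Ly6d-negative cells (2.52-fold, 1.31 to 5.33) and 9.09 CPM in KO and 2.72 CPM in WT Ly6d-positive cells (3.34-fold, 1.69 to 7.32). Bax was 1.19-fold (1.02 to 1.38) and 1.16-fold (1.006 to 1.35) in the same classes, and Bak1 0.844-fold (0.680 to 1.05) and 1.02-fold (0.828 to 1.27).

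Immediate early and stress genes also moved in these cells, and not only there. Their 16-gene list summed to 5910 CPM in KO and 3196 CPM in WT Ly6d-negative cells, with 11 of 13 entered genes higher in KO, among them Fos at 1305 CPM in KO and 486 CPM in WT. In Ly6d-positive cells it summed to 6239 CPM in KO and 3291 CPM in WT, with 12 of 13 higher. Over all classes compared, 96 of 138 pairs of a list gene and a class (69.6%) were higher in KO and 0 lower. Among them were 12 of 13 in early B-like, 10 of 14 in CD3 lymphocyte-like and 8 of 12 in Calca-low ILC2-like cells, where no member passed. The 14-gene cycling list summed to 3710 CPM in KO and 4567 CPM in WT Ly6d-negative cells and to 3303 CPM in KO and 4275 CPM in WT Ly6d-positive cells. KO Ly6d-positive cells also carried the plasma cell gene Igha at 337 CPM, against 36.5 CPM in WT. The part of these genes in the results was not tested. When cells were thinned to 1500 UMIs, Bcl2l11 in Ly6d-negative cells came to 1.23-fold, short of the rule, and without the 5% of cells with most UMIs Mcl1 there came to 1.49-fold, while Bcl2l11 in Ly6d-positive cells it was at least 1.99-fold under all 8 alternatives run.

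In pDC-like cells the same 3 genes differed in the same directions as in the progenitor-like cells. No cell was in both classes, but the pDC gate admitted cells that also met the progenitor marker count. Flt3, a progenitor marker, was at 291 CPM in KO and 348 CPM in WT pDC-like cells. Ly6d-negative progenitor-like cells had 336 CPM of it in KO and 406 CPM in WT. Bcl2l11 was at 69.6 CPM in KO and 39.9 CPM in WT (1.74-fold, 1.41 to 2.17) and Mcl1 at 309 CPM in KO and 197 CPM in WT (1.57-fold, 1.43 to 1.73). These were 2 of 6 members that entered, beside 1.91% of all genes higher and 4.35% in either direction. Bcl2 had 287 CPM in KO and 381 CPM in WT, 0.753-fold (0.691 to 0.819), short of the rule, and 0 members were lower, where 2.43% of all genes were. The stress list summed to 7717 CPM in KO and 4110 CPM in WT with 11 of 13 genes higher, and its part in the result was not tested. Thinned to 1500 UMIs, Mcl1 came to 1.44-fold, and it was past 1.5-fold in 6 of 8 alternatives.

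KO ILC precursor-like cells had a lower Bcl2 level and higher levels of 2 pro-apoptotic genes, by few UMIs in WT. Bcl2 was 0.739-fold (0.690 to 0.793), short of the rule, at 902 CPM in KO and 1219 CPM in WT. Bcl2l11 passed at 1.65-fold (1.10 to 2.55), from 181 UMIs in KO and 28 in WT, and Bak1 at 2.20-fold (1.23 to 4.26), from 112 UMIs or 32.0 CPM in KO and 13 UMIs or 14.5 CPM in WT. These 2 of 6 members that entered stand beside 5.23% of all genes higher in KO in this class, and 0 were lower, beside 4% lower and 9.23% in either direction. With 1 more marker asked of each class, Bcl2l11 came to 1.13-fold and Bak1 to 1.41-fold. Of 10 alternatives run, 7 left Bcl2l11 past 1.5-fold and 9 left Bak1 past it.

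Cycling genes were also higher in KO ILC precursor-like cells. The cycling list summed to 1442 CPM in KO and 688 CPM in WT, with 11 of 13 entered genes higher in KO, and the stress list to 7404 CPM in KO and 4527 CPM in WT, with 9 of 12 higher. Within KO, 48 cells with at least 5 cycling genes had 477 CPM of Bcl2 and 150 cells with at most 1 had 1026 CPM, 0.465-fold (0.412 to 0.523), while Mcl1 was 0.796-fold (0.652 to 0.970) and Bcl2l11 0.567-fold (0.368 to 0.858). Among cells with at most 1 cycling gene, a comparison chosen after seeing the data, Bcl2 was at 1026 CPM in 150 KO cells and 1250 CPM in 32 WT cells. Bcl2l11 in these cells was at 75.2 CPM in KO and 79.3 CPM in WT, a log2 difference of -0.078, so its call was gone and its sign turned. Bak1 was at 33.8 CPM in KO and 9.92 CPM in WT. The 32 WT cells held 201666 UMIs in all, against 1064206 in the 150 KO cells. The WT levels of Bcl2l11 and Bak1 in them thus rest on few UMIs and are given without intervals. Calca was lower in KO, at 130 CPM against 626 CPM in WT, and without the cells carrying 2 or more Calca UMIs Bcl2 was at 922 CPM in 322 KO cells and 1330 CPM in 76 WT cells.

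Intermediate cells, gated on markers that include Maf and Bcl11b, had 78.7 CPM of Bcl2l11 in KO and 44.4 CPM in WT, 1.77-fold (1.11 to 2.91), from 76 KO and 25 WT UMIs. It was 1 of 5 members that entered, where 5.51% of all genes were higher. None of the 5 members were lower, beside 2.87% of all genes lower and 8.39% in either direction. Bcl2l11 was past 1.5-fold in 5 of 8 alternatives. The others gave 1.45-fold with at least 2000 genes, 1.33-fold with a mitochondrial limit of 5% and 1.21-fold with 1 more marker. Bcl2 did not part, at 1.07-fold (0.910 to 1.25). In ILC2-like cells the counting intervals of Bcl2 ran from 0.952 to 1.16-fold in Calca-low and from 0.855 to 1.27-fold in Calca-high cells, and those of Mcl1 from 0.859 to 1.14-fold and from 0.989 to 1.47-fold. With 1 more marker asked of each class Bcl2 in Calca-high cells came to 1.33-fold, outside that interval. Bcl2l11 was 0.728-fold (0.516 to 1.014) in Calca-high cells, opposite in direction to the precursors, with an interval that includes 1, and it came to 0.468-fold with 1 more marker asked of each class. In Calca-low cells it was 1.30-fold (0.911 to 1.84), but 1.57-fold with 1 more marker, 2.80-fold with at least 2000 genes per cell and 0.590-fold when thinned to 1500 UMIs.

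In basophil-like cells Bcl2 was at 88.9 CPM in KO and 152 CPM in WT, 0.583-fold (0.459 to 0.737), from 108 KO and 226 WT UMIs. It was 1 of 6 members that entered, where 4.3% of all genes were lower, and none of the 6 were higher, beside 2.27% higher and 6.57% in either direction. Cycling basophil-like cells had more Bcl2 than non-cycling ones, 1.79-fold (1.02 to 3.36) in KO and 1.69-fold (1.02 to 2.97) in WT, opposite to ILC precursor-like cells. These folds rest on 76 cycling and 15 non-cycling Bcl2 UMIs in KO, and on 158 and 17 in WT. Non-cycling cells were also shallower than their class. In KO, 56 of 158 cells held 245102 of 1214753 UMIs, and in WT 42 of 221 cells held 183651 of 1482341. The cycling list summed to 3476 CPM in KO and 4565 CPM in WT, and among basophil-like cells with at most 1 cycling gene Bcl2 was at 61.2 CPM in 56 KO cells and 92.6 CPM in 42 WT cells. The stress list summed to 11858 CPM in KO and 5792 CPM in WT, with 12 of 12 genes higher. Genes of other lineages were also lower in KO basophil-like cells, with Flt3 at 7.41 CPM in KO and 23.6 CPM in WT and Siglech at 2.47 CPM in KO and 24.3 CPM in WT. The part of these values in the Bcl2 result was not tested, and with 1 more marker asked of each class Bcl2 came to 0.752-fold. Of 9 alternatives run, 7 left Bcl2 past the fold of the rule.

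Read over all members that entered, the median KO over WT difference was 0.17 log2 units in Ly6d-negative and 0.12 in Ly6d-positive progenitor-like cells, against -0.05 and -0.04 over all genes. It was 0.24 in ILC precursor-like cells and 0.10 in pDC-like cells, against -0.02 and -0.04 over all genes. Calca-high ILC2-like cells had 0.13 against -0.09 over all genes, early B-like cells 0.14 against -0.04, basophil-like cells 0.15 against -0.04 and intermediate cells 0.09 against 0.03. The members' median was -0.01 in Calca-low ILC2-like, 0.00 in NK or ILC1-like and -0.03 in CD3 lymphocyte-like cells, against -0.08, -0.03 and -0.05 over all genes. A member entered through its higher library, so these medians describe 4 to 9 members per class and not all 10. Over all 10, which adds members of few UMIs, the sign turned in early B-like cells, to -0.24, and in CD3 lymphocyte-like cells, to 0.04. The median over all 10 was 0.06 in basophil-like and 0.31 in pDC-like cells.

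Other genes of the pathway passed at shares that differed between lists, beside 6.91% of all 64687 pairs of a gene and a class. Of 14 further relatives, such as Bad, Bmf, Bcl2l2 and Bnip3l, 2 to 5 entered per class and 0 of 35 pairs passed, too few to set against that share. Among 10 genes of the mitochondrial death machinery, cytochrome c (Cycs) was lower in KO Calca-high ILC2-like cells (41.9 CPM in KO, 71.9 CPM in WT) and in KO early B-like cells (153 CPM in KO, 237 CPM in WT), and Diablo, which relieves caspase inhibition, was lower in KO Calca-low ILC2-like cells (29.7 CPM in KO, 46.7 CPM in WT) and in KO basophil-like cells (18.9 CPM in KO, 33.7 CPM in WT). None of the 10 were higher in any class, and 4 of 75 pairs (5.33%) passed. The 5 inhibitor genes passed in 8 of 53 pairs (15.1%), 4 higher and 4 lower. Xiap, which blocks caspases, was lower in KO Calca-low ILC2-like cells, at 47.8 CPM in KO and 89.1 CPM in WT. Birc5, also on the cycling list, was higher in 3 classes and lower in 1, with 47.1 CPM in KO and 17.9 CPM in WT ILC precursor-like cells. Of the inhibitors that bind signalling complexes, Birc3 was lower in KO intermediate cells, and Birc2 was lower in KO CD3 lymphocyte-like and higher in KO early B-like cells.

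The 15 regulators of the family passed in 17 of 133 pairs (12.8%), 11 higher and 6 lower. In pDC-like cells 4 of 12 that entered passed, with Cdkn1a, Foxo3 and the survival kinase gene Pim1 higher and Stat5a lower in KO. In Ly6d-positive progenitor-like cells 3 of 13 passed, with Cdkn1a and Il2rg, the common cytokine receptor chain, higher and Socs2, a cytokine signalling inhibitor, lower. Stat5b was higher in KO intermediate cells. Cdkn1a, a p53 target like Bbc3, was higher in KO in Ly6d-negative progenitor-like cells (70.7 CPM in KO, 37.3 CPM in WT), Ly6d-positive progenitor-like cells (102 CPM in KO, 64.3 CPM in WT) and pDC-like cells (74.6 CPM in KO, 37.4 CPM in WT). Foxo3, a transcription factor known to activate Bcl2l11, was higher in KO intermediate cells (61.1 CPM in KO, 30.2 CPM in WT) and pDC-like cells (35.6 CPM in KO, 20.0 CPM in WT). Il7r, whose receptor feeds Bcl2 through STAT5, passed in 0 of 11 classes, with 986 CPM in KO and 1176 CPM in WT ILC precursor-like cells. Counts of 0 to 3 of the 15 regulators were higher per class and 0 to 2 lower.

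A high mitochondrial share is the usual sign of a damaged cell, so the barcodes that the limit left out were examined for the same genes. The limit removed 1307 KO barcodes (23.1% of those with 1000 genes) and 743 WT barcodes (18.4%), among them 363 KO and 153 WT cells that met the Ly6d-negative progenitor gate. On a scale without mitochondrial UMIs, Bax in the removed barcodes was 0.355-fold (0.304 to 0.412) of its level in kept ones in KO and 0.575-fold (0.484 to 0.679) in WT. Bcl2l11 was 1.21-fold (1.10 to 1.34) in KO and 1.27-fold (1.09 to 1.48) in WT, and Mcl1 0.979-fold in KO and 0.931-fold in WT. These ratios over all barcodes mix classes in unlike shares. In KO, 363 of 1307 removed and 425 of 4343 kept barcodes met the Ly6d-negative progenitor gate. In removed Ly6d-negative progenitor-like cells Bcl2 was 1.90-fold (1.70 to 2.11) in KO and 1.76-fold (1.53 to 2.02) in WT, and Bax 0.284-fold (0.201 to 0.391) in KO and 0.421-fold (0.262 to 0.647) in WT. Bcl2l11 in these cells was 1.12-fold (0.919 to 1.36) in KO, an interval that includes 1, and 1.48-fold (1.05 to 2.06) in WT. Among the 8 members with enough UMIs, Bax thus had the lowest ratio of removed to kept Ly6d-negative progenitor-like cells, in KO and in WT. In Ly6d-positive progenitor-like cells Bax was 0.734-fold (0.388 to 1.27) in KO and 0.863-fold (0.526 to 1.35) in WT, intervals that include 1. Only 35 removed KO and 43 removed WT barcodes met that gate.

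**Figure D5:**
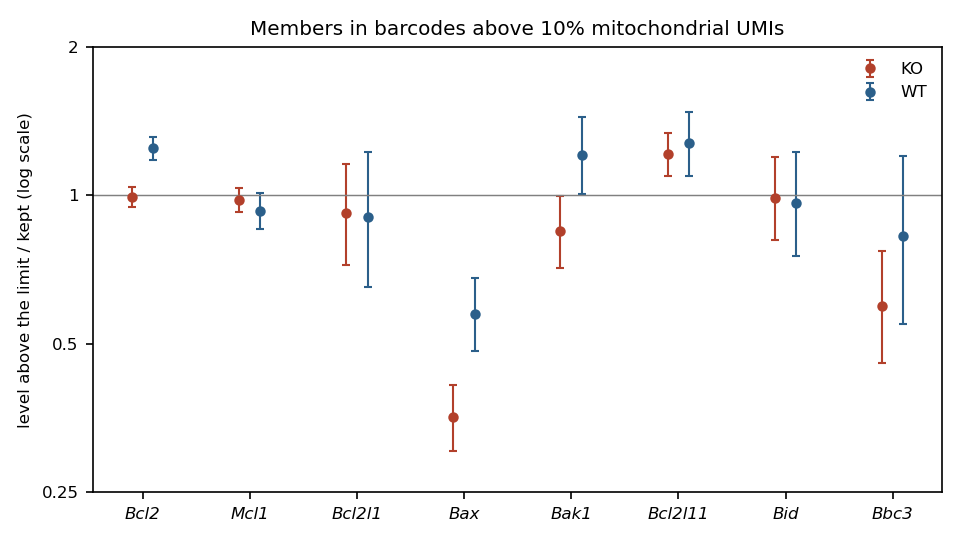
Level in barcodes above 10% mitochondrial UMIs over the level in kept barcodes (y axis, log scale) for 8 members, KO left of WT, with exact 95% intervals for counting error. Bax is lower above the limit in both libraries (0.355-fold in KO, 0.575-fold in WT) and Bcl2l11 is higher (1.21-fold in KO, 1.27-fold in WT).

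Cycling cells differed from non-cycling ones within NK or ILC1-like cells as well. In KO, 53 cells with at least 5 cycling genes had 374 CPM of Bcl2 against 816 CPM in 238 cells with at most 1, 0.459-fold (0.403 to 0.521). Mcl1 was 0.469-fold (0.370 to 0.589), Bcl2l11 0.274-fold (0.190 to 0.385) and Bbc3 0.226-fold (0.121 to 0.394). Bax went the other way at 1.44-fold (1.11 to 1.87).

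Over 23 points, each a class in 1 library, the pattern of Bcl2 was most like that of Mrpl52 (Pearson r = 0.87), Tcf7 (0.86), S100a6 (0.85), Clec2i (0.85) and Stat3 (0.84) among 2958 genes ranked on log2(CPM + 1). Tcf7 is a marker of the ILC precursor-like and intermediate gates. Mcl1 was most like Rlim (0.77), Zfp36 (0.73), Zcchc6 (0.71), Fos (0.68) and Ccnl1 (0.66), and it went with the summed stress list at r = 0.57. Between members, Bax and Bbc3 went together at r = 0.81 and Bcl2 and Bcl2a1b at 0.80, Bid went with the cycling list at r = 0.72, and Bcl2 against it at -0.59. These points share 2 libraries and their depth, so the correlations are descriptions.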

How the data were processed

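The deposited values are UMI counts, not normalised, of every gene in every barcode of 1 KO and 1 WT library, made by the authors with 10x Chromium 3′ v3.1 chemistry per the labels' protocols. The file headers name Cell Ranger 3.1.0, and the submitters' processing notes name Cell Ranger, Seurat and the build mm10. The annotation release and the role of Seurat are not given in the sources used here. Barcodes with at least 1000 genes and at most 10% mitochondrial UMIs were kept. Of all barcodes, 75 were shared between libraries, and of kept ones 0.

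Cells were gated by counts of detected markers per lineage. The markers, the members and the gene lists were chosen with earlier results of these data known, and the gates' thresholds after looking at the data. Cells meeting gates of several lineages were left out for many pairs of lineages, but not for all. Intermediate cells could meet both the ILC2 and the ILC precursor gate. CD3 lymphocyte-like cells could meet the NK or ILC1 gate, and early B-like and pDC-like cells the progenitor gate. NK or ILC1-like, CD3 lymphocyte-like and ILC3-like cells could also meet the ILC precursor gate. No doublet caller was run, and an alternative left out the 5% of cells with most UMIs. UMIs were summed per class and scaled to CPM, with exact Poisson intervals and exact conditional binomial intervals of folds at 95%. Cells were not treated as replicates, and UMI sums of pooled animals carry no error between animals. The named genes were all 10 members, up to 4 genes of each fixed pathway list, and the 5 genes most like Bcl2 and Mcl1 in pattern. TMM factors came from edgeR 4.0.16, and the rest from Python 3.11.15 with scipy 1.17.1, checked on simulated counts.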

Additional observations from a re-analysis of the deposited data

How the results depend on the processing

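No paired analysis was possible because each genotype has 1 library and no result comes from a test. Of 867 single-member differences recomputed under the alternatives, 800 stayed within the main counting interval and 118 had the other sign. Among the 175 whose main interval leaves out 1, 1 had the other sign, Bcl2l11 in ILC precursor-like cells, at -0.078 log2 units among cells with at most 1 cycling gene. The 8 calls higher in KO became 5 with a mitochondrial limit of 5%, 4 with cells thinned to 1500 UMIs, 2 with a 2-fold rule and 1 among cells with at most 1 cycling gene, where 6 classes were left. The 2 calls lower in KO became 1 with at least 2000 genes, 3 with a mitochondrial limit of 5%, 1 more marker or without the 5% of cells with most UMIs, 5 when thinned, 4 with the mean CPM of each cell, 4 with no filter on low counts, and 0 with a 2-fold rule or among cells with at most 1 cycling gene. Without the filter the added calls were Bbc3 in both progenitor-like classes, Bcl2l1 in early B-like and Bcl2a1b in CD3 lymphocyte-like cells. The share of all genes that passed under each alternative is not given here, so these counts have no background beside them.

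The difference of log2 Bcl2 over Mcl1 between Calca-high ILC2-like and Ly6d-negative progenitor-like cells, 0.77 in KO and -0.14 in WT, came to 0.41 in KO when thinned and to 0.0097 in WT without the 5% of cells with most UMIs. With at least 2000 genes, KO had under 30 Calca-high cells and gave no value. The difference between ILC precursor-like and Calca-high cells, added after seeing the data, ran from 1.94 to 2.30 in KO and from 2.24 to 2.61 in WT over the alternatives run for it. The 2 alternatives on cycling and Calca were also chosen after seeing the data. Depth limits Pmaip1 and Bcl2a1b most, and 18 WT ILC3-like cells allowed no comparison.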
